A study of Mus musculus with 2 samples.

Results

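A set of 8 genes of the lipid-associated, TREM2-positive macrophage state was followed across the cell classes of mouse tumours: Trem2, Spp1, Apoe, Gpnmb, Fabp5, Lpl, Cd9 and Cd36. They were chosen by gene symbol, and all 8 were among the 31053 genes of both count matrices. The tumours, labelled as subcutaneous xenografts, were formed in mice from MC38, a mouse colon adenocarcinoma cell line. One tumour sample was labelled as the control group and the other as the UBD overexpression group. UBD (ubiquitin D, or FAT10) is a small modifier that is joined to other proteins and sends them to the proteasome. Both tumours were minced, digested, freed of red cells and loaded on droplets, with no sort named in the labels, for 3′-end single-cell RNA sequencing with unique molecular identifiers (UMIs, each standing for a captured transcript). The labels give neither the host strain nor its age or sex, nor how many animals went into a sample, nor the vector that carried UBD. With 1 library per group there are no replicates, so no test between the groups was possible. Intervals in parentheses are exact 95% intervals that cover counting error only.

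As background, TREM2 is a lipid-sensing receptor of macrophages, microglia and osteoclasts that signals through the adaptor TYROBP. Its ligands include lipoproteins that carry apolipoprotein E, the product of Apoe. Macrophages that take up much lipid, in obese fat tissue, atherosclerotic plaques, damaged brain and tumours, are known to raise Trem2 together with Gpnmb, Fabp5, Lpl, Cd9 and Spp1. In this set CD36 is a scavenger receptor for oxidised lipoproteins and fatty acids, LPL is the secreted lipase that frees fatty acids from lipoproteins, and FABP5 carries fatty acids inside the cell. GPNMB is a lysosomal and surface glycoprotein, CD9 a tetraspanin of the surface and of vesicles, and SPP1 (osteopontin) a secreted matrix protein that many tumour cells also make.

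The deposited matrices held 14890 barcodes and 173973178 UMIs in the control library and 14158 barcodes and 204267192 UMIs in the UBD library. After filtering, 13823 control cells (median 4334 UMIs) and 13057 UBD cells (median 12186 UMIs) were kept. In all, 71 barcodes occurred in both libraries. The libraries also stood apart in Gm42418, a gene that overlaps a ribosomal RNA repeat: in macrophages positive for C1q it made 11439 UMIs per 1000000 UMIs (CPM) in control cells and 2886 CPM in UBD cells. Cells were put into classes by marker genes that are not among the 8. C1q macrophages carried at least 30 UMIs per 10000 of C1qa, C1qb and C1qc and were split by the sum of Cd74, H2-Aa, H2-Ab1 and H2-Eb1 into high MHC class II (80 or more per 10000), low (under 30) and intermediate cells. There were 643 high, 235 intermediate and 1450 low cells in the control, and 833, 202 and 689 in the UBD library. Ly6c2 monocytes numbered 1476 and 100, cells with both Acp5 and Ctsk 102 and 674, and Cdkn2a tumour cells 4535 and 6611. Levels are CPM of the UMIs summed over a class; since each transcript is counted once at its 3′ end, gene length does not enter.

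The class names were checked against markers outside the gates. C1q macrophages held Adgre1 (F4/80) at 226 and 129 CPM and Ms4a7 at 1268 and 1012 CPM in the control and UBD libraries. Those of the control library also carried the monocyte genes Ly6c2 (734 against 17.8 CPM) and Plac8 (802 against 117 CPM), whereas Fn1 went the other way (78.2 against 751 CPM). The monocytes had Plac8 at 5013 and 4687 CPM and Ccr2 at 357 and 447 CPM. Cells with Acp5 and Ctsk carried the osteoclast genes Mmp9 (4127 and 5897 CPM), Atp6v0d2 (724 and 922 CPM) and Ocstamp (269 and 263 CPM), with Adgre1 at only 2.46 and 0.898 CPM, and are called osteoclast-like here. Tumour cells had the 4 Y-linked genes measured at a sum of 2.27 and 0.549 CPM, against 63.4 to 129.7 CPM in C1q macrophages, monocytes and osteoclast-like cells. The series text speaks of goblet cells, but in tumour cells the goblet genes Muc2, Tff3, Fcgbp and Spink4 together made 0.0863 and 0.0314 CPM, and the epithelial gene Epcam was at 0.0384 and 0.0471 CPM. Ubd itself stood at 0.307 and 1.04 CPM in tumour cells; a construct without the mouse 3′ end would not be counted, so this does not check the label.

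The same class was not made of the same clusters in both libraries. Among high MHC class II macrophages, cluster 0 held 89.4% of the control cells and cluster 4 held 92.1% of the UBD cells, and among low cells these clusters held 80.1% and 79.4%. Each of these clusters came mostly from 1 library, so a cell state and the library cannot be told apart. Control monocytes were spread over clusters 9 (42.8%), 0 (31.7%) and 14 (13.7%), while 61% of the UBD monocytes were in cluster 14. Of the control osteoclast-like cells, 20.6% lay in a shallow cluster that carried both Cdkn2a and C1q transcripts. The class limits are cuts on a range: over all kept cells, 629 control and 242 UBD cells had a C1q sum between the cut and 2 times the cut, 1863 and 1562 lay above that, and 666 and 153 lay between 15 per 10000 and the cut.

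Droplets also take up free RNA from broken cells, and levels in T cells serve as a background for it: Spp1 stood at 587 and 844 CPM in T cells of the control and UBD libraries, Fabp5 at 158 and 244, Apoe at 119 and 173, and Cd9 at 45.02 and 77.2 CPM. Trem2, Gpnmb, Lpl and Cd36 were each under 10 CPM there. Another yardstick came from genes that mark the source. C1q macrophages held Cdkn2a at 4.24% to 4.88% of its tumour level, and the same share of the tumour's Spp1 would amount to 460.4 to 578 CPM. This is called the free-RNA level of a gene below. For tumour cells it is macrophage RNA at the rate read from the C1q genes, and for the other classes the sum of both. Tumour levels for this were read from the Cdkn2a clusters without the shallow mixed one. Cdkn2a and the C1q genes also set the gates, and cells past several cuts were left out. The gates thus cap the free-RNA level, and multiples of it may be too high.

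Trem2, the receptor of the set, was a macrophage transcript in both libraries. In the control it stood at 395 (379 to 411) CPM in low, 301 (268 to 337) in intermediate and 217 (200.4 to 235) CPM in high MHC class II macrophages, and in the UBD library at 425 (406 to 445), 371 (338 to 407) and 385 (367 to 403) CPM. The control classes stepped down with MHC class II, whereas the intervals of the UBD intermediate and high classes overlapped. Monocytes followed with 79.1 and 159 CPM and osteoclast-like cells with 105 and 34.8 CPM. Tumour cells had 3.33 and 1.78 CPM, 1.93 and 1.65 times the free-RNA level, and T cells were at a like multiple (1.83 and 1.96 times). With every cell thinned to 1000 UMIs, a Trem2 transcript was found in 23.7% of control and 30.4% of UBD C1q macrophages, and in 1.13% and 1.05% of T cells; unthinned, the shares in macrophages were 53.9% and 76.7% and in T cells 1.94% and 2.63%, at median depths of 3826 and 5674 UMIs in macrophages and 3014 and 2457 UMIs in T cells.

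Apoe, which codes for the lipoprotein component that TREM2 binds, was the most abundant of the 8 in every C1q class. It ran from 8479 CPM in low to 12284 CPM in high MHC class II macrophages of the control, and from 8701 CPM in intermediate to 11309 CPM in high cells of the UBD library. Monocytes had 1630.0 and 924 CPM, osteoclast-like cells 1249.6 and 384 CPM, and tumour cells 72.7 and 80.5 CPM. Apoe was 11.6 and 6.79 times above its free-RNA level in monocytes and 13.2 and 8.58 times in osteoclast-like cells, multiples that the gates can raise. In tumour cells it was 1.46 and 3.01 times that level.

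Spp1 went the other way, with its highest level in tumour cells: 11829 CPM in control cells and 12819 CPM in UBD cells. C1q macrophages had 514 (high), 1110.4 (intermediate) and 1033 CPM (low MHC class II) in the control, and 2047, 2997 and 4165 CPM in the UBD library. The control high class lay at 1.12 times the free-RNA level and below the T cells of its own library, so Spp1 of these cells could not be told from free RNA. The other macrophage classes lay above it, at 2.06 times in control low cells, 3.73 times in UBD high cells and 7.21 times in UBD low cells. In the control, natural killer cells (1153 CPM), endothelial cells (1479), fibroblasts (1717) and neutrophils (4642) had more Spp1 than low macrophages. In the UBD library, fibroblasts (3453 CPM) lay above high and below low macrophages. A level near 2 times the free-RNA level thus does not show that control low cells make Spp1. Osteoclast-like cells had 809 and 839.7 CPM, 2.03 and 1.97 times the free-RNA level, and the interval of the UBD value (821 to 859) held the T-cell level of 844 CPM. Thinned to 1000 UMIs, Spp1 was found in 37.0% and 59.8% of high and 50.7% and 65.9% of low MHC class II macrophages, but also in 40.3% and 53.6% of T cells; unthinned, the T-cell shares were 77.1% and 84.8% and those of high macrophages 80.1% and 93.8%. The share of cells with Spp1 is thus at background in control high cells.

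The scavenger receptor Cd36 was rare in the tumours. C1q macrophages had 6.34 and 6.10 CPM in high and 13.9 and 32.2 CPM in low MHC class II cells; monocytes had 5.78 and 6.48 CPM from 26 and 2 UMIs. Osteoclast-like cells gave 0 UMIs in the control, which allows up to 1.85 CPM (3 counts), and 2 UMIs in the UBD library. The lipase gene Lpl was mainly found outside the C1q macrophages: 321 (294 to 349) and 144 (136 to 152) CPM in osteoclast-like cells, against 17.2 and 42.2 CPM in all C1q macrophages. Fibroblasts had 200.2 and 343 CPM in 81 and 98 cells. The fatty acid carrier Fabp5 was at its macrophage maximum in low MHC class II cells (2480.5 and 2843 CPM), with 2189 and 2302 CPM in 219 and 130 dendritic cells and 652 and 628 CPM in tumour cells.

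Gpnmb stayed low throughout the macrophages, with 3.17 and 10.3 CPM in high and 11.4 and 24.2 CPM in low MHC class II cells. Osteoclast-like cells had 27.1 (19.7 to 36.3) and 15.9 (13.4 to 18.8) CPM, and the 81 control fibroblasts 74.7 (56.4 to 97.0) CPM. Cd9 was most abundant in neutrophils and tumour cells: tumour cells had 511 and 569.9 CPM, and 127 control and 16 UBD neutrophils 1685 and 1849.8 CPM. In control C1q macrophages Cd9 (42.9 CPM in high and 44.3 CPM in low cells) was within the interval of T cells, 35.8 to 56.0 CPM. It could not be told from the T-cell background, though it lay above the free-RNA level read from Cdkn2a. In UBD macrophages it stood at 221 and 154 CPM, above the 77.2 (63.9 to 92.5) CPM of T cells. CD9 is one of the surface markers by which lipid-associated macrophages are usually sorted.

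**Figure D1:**
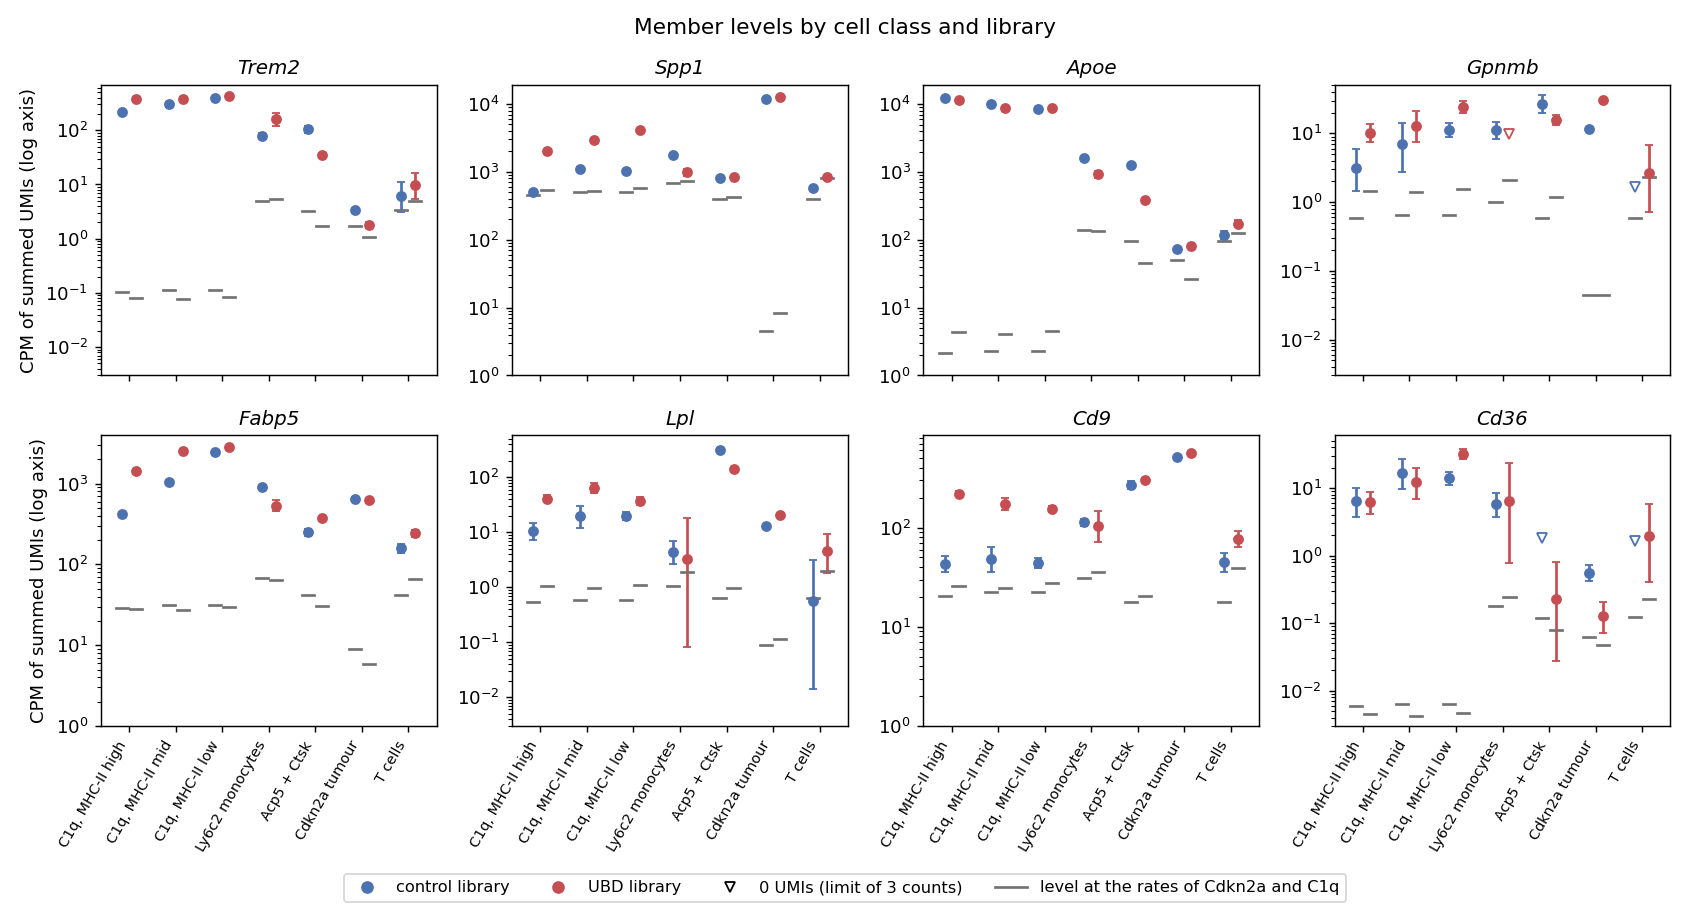
Level of each of the 8 genes (CPM of summed UMIs, log axis) in the cell classes and in T cells as background, for the control library (blue) and the UBD library (red), with 95% counting intervals. Grey marks give the free-RNA level and open triangles the limit of 3 counts where no UMI was found. Of the plotted classes, Trem2 and Apoe are highest in C1q macrophages, Spp1 and Cd9 in tumour cells, and Lpl in Acp5 and Ctsk cells.

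The genes' patterns over cell classes were compared over 21 profiles, one for each class of a library with at least 50 cells, by Pearson's r of log2 CPM. The profiles share libraries, depth and free RNA, so r is a description. Of 5405 genes compared, Apoe was the one most like Trem2 (r = 0.96), followed by Msr1 (0.95), a scavenger receptor for modified lipoproteins, and Atp13a2 (0.94). Trem2 led the list for Apoe, before Ms4a7 (0.95) and Folr2 (0.94). Spp1 was unlike both (r = -0.24 with Trem2 and -0.19 with Apoe), and its nearest genes were Fam162a (0.86), Etv1 (0.85) and Papss1 (0.85). Gpnmb and Lpl went together (r = 0.85). Their nearest genes were Tspan4 (0.89), Clmp (0.88) and Sfxn3 (0.88) for Gpnmb, and Steap3 (0.89), Calr (0.88) and Naglu (0.88) for Lpl. Fabp5 was nearest to Bmp2k (0.86), Arhgdia (0.84) and Dab2 (0.82), Cd9 to Igf1r (0.77), Nudt4 (0.75) and Plp2 (0.72), and Cd36 to the endothelial gene Vwf (0.92), Smagp (0.87) and Ednrb (0.86). Cd36 stood at 90.5 CPM in the only endothelial profile, that of the control, and at 32.2 CPM or less in all others. The r values of Cd36 may thus rest largely on that profile. Cd9 had a negative r with Trem2 (-0.45), so the 8 genes did not form 1 pattern across the tumour.

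The 250 bases before the RefSeq start (GRCm38.p6) of Trem2 and Apoe, the pair with the closest patterns, and of Spp1, which went apart, are shown with the motif matches in capitals.
Trem2 (chr17:48346151-48346400, plus strand): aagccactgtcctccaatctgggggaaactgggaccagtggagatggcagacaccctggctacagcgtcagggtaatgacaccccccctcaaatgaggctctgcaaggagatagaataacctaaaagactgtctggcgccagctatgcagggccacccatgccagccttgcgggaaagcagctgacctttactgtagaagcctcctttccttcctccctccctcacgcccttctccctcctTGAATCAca
Apoe (chr7:19699189-19699438, minus strand): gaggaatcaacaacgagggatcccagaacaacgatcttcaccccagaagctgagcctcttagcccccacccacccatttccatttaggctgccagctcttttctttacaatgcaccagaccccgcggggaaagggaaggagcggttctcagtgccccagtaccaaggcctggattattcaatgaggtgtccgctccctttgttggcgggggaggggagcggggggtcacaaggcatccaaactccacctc
Spp1 (chr5:104434861-104435110, plus strand): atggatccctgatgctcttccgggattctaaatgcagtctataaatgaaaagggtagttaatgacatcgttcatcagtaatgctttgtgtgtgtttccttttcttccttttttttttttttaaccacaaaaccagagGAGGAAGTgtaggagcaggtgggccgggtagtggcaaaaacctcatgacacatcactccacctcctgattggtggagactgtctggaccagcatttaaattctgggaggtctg
Both strands were searched for the AP-1 site TGANTCA, the E-box CACGTG, the M-box TCATGTG, the PU.1 site GAGGAAGT and the DR4 repeat that LXR binds. Trem2 held 1 AP-1 match, starting at -9, and Spp1 held 1 PU.1 match, starting at -113; Apoe held no match. Of 32851 promoters, 6.75% hold the AP-1 letters, 6.02% the E-box, 3.25% the M-box, 2.44% the PU.1 letters and 0.0152% the repeat. In the GENCODE annotation of mm10 (the same build), Trem2 lies at chr17:48346401-48354147 on the plus strand, Spp1 at chr5:104435118-104441050 on the plus strand and Apoe at chr7:19696109-19699188 on the minus strand. Gpnmb, Cd9 and Cd36 had no match in the same window, and Fabp5 and Lpl were not in the promoter table.

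Within the C1q macrophages, several of the 8 genes were higher where MHC class II was low. A gene was counted as higher or lower when the ratio reached 1.5-fold and its interval excluded 1. By that rule, low against high cells had 6 of 8 members higher and 0 lower in the control, where 7.38% of 10189 genes were higher and 3.98% lower, and 4 higher and 0 lower in the UBD library, where 10.8% of 10008 genes were higher and 3.61% lower. Their median log2 ratio was 0.96 and 0.56, against 0.10 and 0.16 over all genes. With every cell thinned to 1000 UMIs, 3 members were higher in each library. Fabp5 differed most in the control: 424 CPM in high and 2480.5 CPM in low cells, a ratio of 5.84 (5.51 to 6.201); in the UBD library it was 1441 and 2843 CPM, a ratio of 1.97 (1.92 to 2.03). Spp1 had ratios of 2.01 (1.90 to 2.13) and 2.03 (1.98 to 2.09). Its control level in high cells could not be told from free RNA, and with free-RNA levels subtracted, an alternative added after the data were seen, the log2 ratios of Spp1 were 3.32 among control cells and 1.26 among UBD cells. Gpnmb was 3.60 (1.79 to 8.18) and 2.35 (1.66 to 3.36) and Cd36 2.20 (1.31 to 3.88) and 5.28 (3.52 to 8.16) times as high in low cells. Trem2 and Lpl were past the rule in the control alone: their ratios were 1.82 (1.66 to 1.99) and 1.87 (1.25 to 2.89) in the control, and 1.10 (1.03 to 1.18) and 0.912 (0.736 to 1.13) in the UBD library. The intervals of these ratios did not overlap between the libraries for Trem2, Lpl and Fabp5, nor for Apoe and Cd9. They overlapped for Spp1, Gpnmb and Cd36. The difference itself was not tested, and how often intervals fail to overlap over all genes was not counted. Apoe leaned the other way, with ratios of 0.690 (0.681 to 0.6996) and 0.773 (0.763 to 0.783), short of the rule, and so did Cd9 in the UBD library, with 0.698 (0.633 to 0.770).

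In 5 steps of MHC class II (under 10, 10 to 30, 30 to 80, 80 to 160, and 160 or more UMIs per 10000), Fabp5 was lower at each further step in the control, with 2732, 1455, 1046, 761 and 275 CPM, and was 2932, 2470.4, 2530.4, 1693 and 1363 CPM in the UBD library. Spp1 in the UBD library went 4194, 4042, 2997, 2637 and 1865 CPM, graded across all steps; in the control it was 987, 1220.5, 1110.4, 735 and 415 CPM. Trem2 was 421, 288, 301, 283 and 188 CPM along the control steps and nearly level in the UBD library (419.6, 447, 371, 389.6 and 383 CPM). Apoe was highest in the top step of both libraries (13769 and 11924 CPM). Lpl in UBD cells was higher in the 3 middle steps (60.02, 64.9 and 64.2 CPM) than at either end (31.7 and 33.6 CPM). The steps held 1133, 317, 235, 204 and 439 cells in control cells and 543, 146, 202, 187 and 646 in UBD cells.

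**Figure D2:**
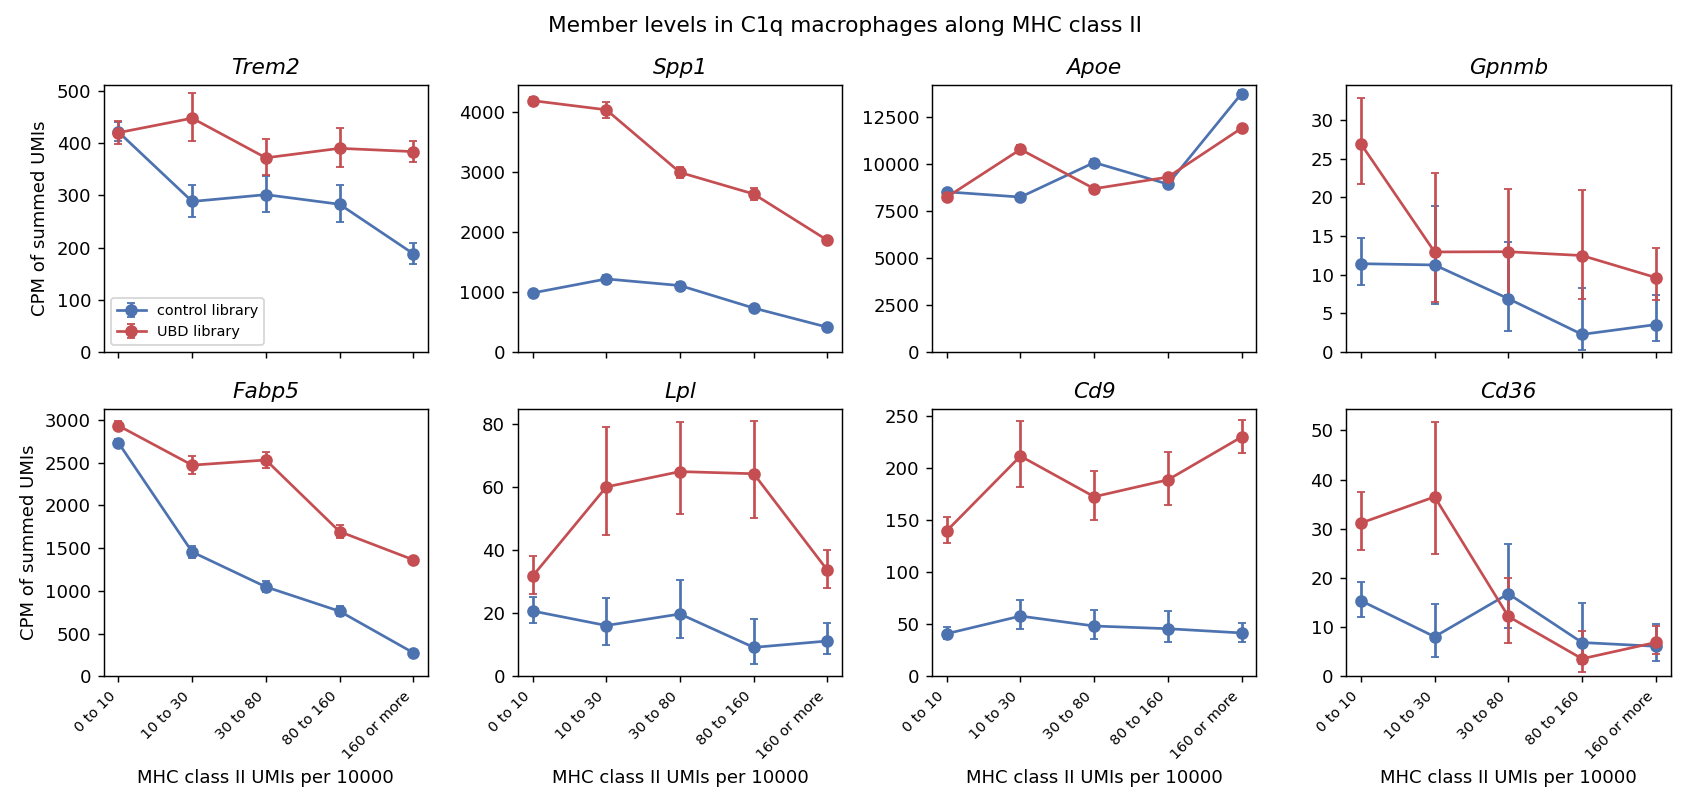
Level of each gene (CPM of summed UMIs, linear axis from 0) in C1q macrophages binned by MHC class II UMIs per 10000, for the control (blue) and UBD (red) libraries, with 95% counting intervals. Fabp5 goes from 2732 to 275 CPM in control cells and from 2932 to 1363 CPM in UBD cells, and Spp1 and Cd9 of the UBD library lie above those of the control in every bin.

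Between the libraries, the C1q macrophages of the UBD tumour had more Spp1, Cd9, Gpnmb and Lpl, and Apoe at nearly the same level. In high MHC class II cells 6 of 8 members were higher in the UBD library and 0 lower, against 9.25% higher and 18.3% lower among 9600 genes; in low cells 5 were higher and 0 lower, against 10.6% and 16.1% among 10503 genes. The members' median log2 ratio was 1.73 in high and 1.00 in low cells, while that of all genes was -0.09 and -0.03. Spp1 went from 514 to 2047 CPM in high cells, 3.99-fold (3.77 to 4.22), and from 1033 to 4165 CPM in low cells, 4.03-fold (3.92 to 4.15). The size of these ratios depends on how free RNA is treated: once free-RNA levels were subtracted, Spp1 reached 28.2-fold in high and 6.74-fold in low cells. Cd9 went from 42.9 to 221 CPM in high cells, 5.13-fold (4.25 to 6.25), and from 44.3 to 154 CPM in low cells, 3.47-fold (3.02 to 4.01), starting from the T-cell level in the control. With free-RNA levels subtracted, the ratios of Cd9 were 8.70-fold and 5.76-fold. Gpnmb was 3.25-fold (1.58 to 7.54) and 2.12-fold (1.56 to 2.91) higher in high and low cells, from 9 and 72 control UMIs, and Lpl 3.87-fold (2.62 to 5.88) and 1.88-fold (1.48 to 2.39) higher.

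Some of the genes differed between the libraries in one kind of macrophage more than in the other. Trem2 was 1.77-fold (1.62 to 1.94) higher in high MHC class II cells and 1.08-fold (1.01 to 1.14) in low cells, so that the UBD high cells (385 CPM) came close to the control low cells (395 CPM). Fabp5 was 3.39-fold (3.19 to 3.61) higher in high and 1.15-fold (1.12 to 1.17) in low cells. For both genes the intervals of the 2 ratios did not overlap, nor did those of Lpl, Cd9 and Apoe, but the difference was not tested. Cd36 had a ratio of 0.963 (0.517 to 1.84) in high and 2.31 (1.76 to 3.05) in low cells, with overlapping intervals. Over the alternatives, the log2 ratio of Cd36 ranged from -0.43 to 1.59 in high and from 0.51 to 1.47 in low cells. Apoe had ratios of 0.921 (0.908 to 0.933) and 1.03 (1.02 to 1.04). Thinned to 1000 UMIs per cell, Trem2 was found in 17.4% of control and 28.4% of UBD high cells and Fabp5 in 18.9% and 46.3%; T cells had Fabp5 in 13.3% and 17.9%. Unthinned, Fabp5 was found in 43.9% and 76.4% of high cells and 30.7% and 35.6% of T cells. Cycling genes moved with the library as well: Mki67 stood at 33.4 CPM in control and 77.5 CPM in UBD C1q macrophages, and its part in these differences, like that of the Ly6c2 and Gm42418 levels given above, was not tested.

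**Figure D3:**
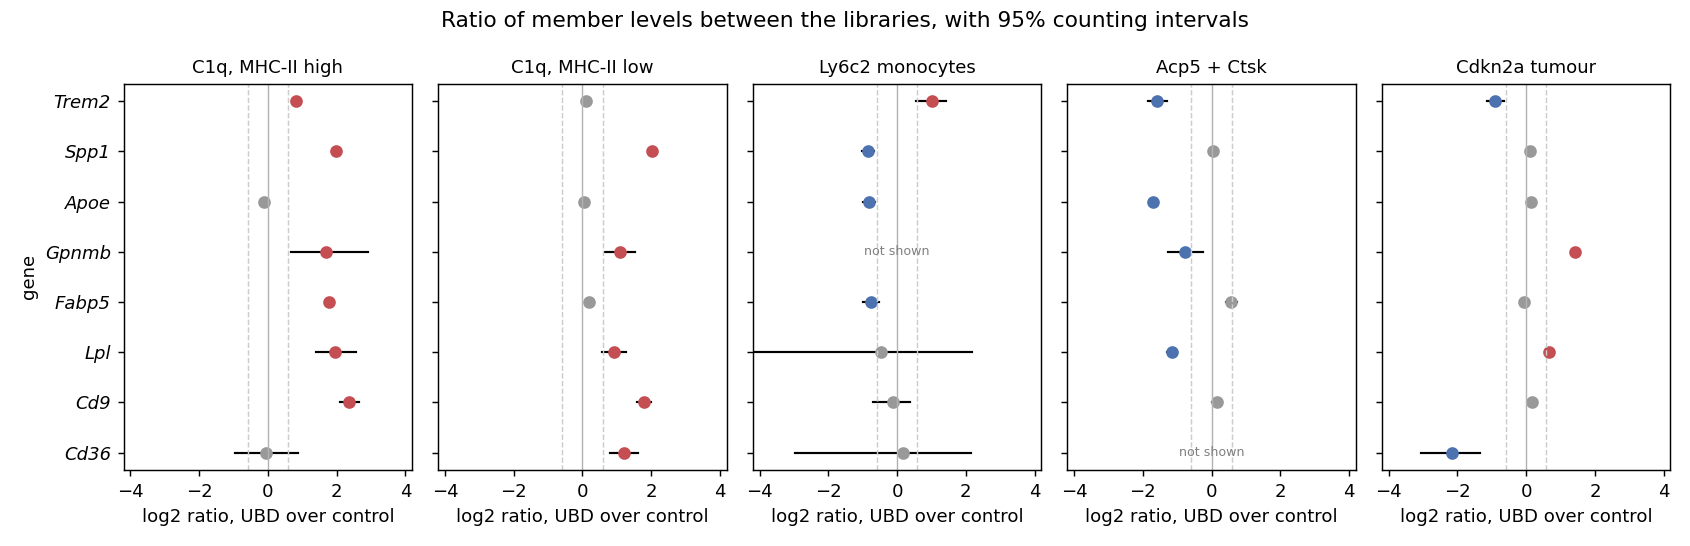
Log2 ratio of each gene's level, UBD over control library, in 5 cell classes, with 95% counting intervals as lines; dashed lines mark 1.5-fold. Red points are higher and blue points lower by the rule, grey points are not past it, and genes with too few UMIs are not shown. In macrophages the points past the rule lie on the right, up to 2.36 for Cd9, whereas in Acp5 and Ctsk cells they lie on the left, down to -1.70 for Apoe.

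Spp1 was unevenly spread over the C1q macrophages. The 10% of cells with the most Spp1 held 54.0% of its UMIs in control cells and 60.6% in UBD cells, and the median cell had 4.99 and 9.36 UMIs per 10000. Cells with 50 or more per 10000 were 3.82% of the control (3.08 to 4.68%, 89 cells) and 15.8% of the UBD macrophages (14.1 to 17.6%, 273 cells). The cells were binned by Spp1 (under 10, 10 to 50, and 50 or more per 10000; bins chosen after the data were seen) and the other genes read in each bin. In the UBD library Fabp5 went 1578, 2062 and 4277 CPM, Cd9 122, 218 and 339.5, Trem2 351, 407 and 549 and Gpnmb 10.0, 14.1 and 42.4 CPM. Lpl did not follow, with 52.6 (46.7 to 59.0), 29.4 and 32.3 (24.2 to 42.1) CPM, nor did Cd36, with 23.5, 8.14 and 17.9 CPM. Arg1, the arginase gene of tumour macrophages, went 524, 1094 and 2462 CPM and Cd74 6868, 6214 and 3979.7 CPM. Cdkn2a, the marker of tumour RNA, was 75.6, 96.5 and 92.0 CPM in these bins.

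In the control library, the 89 macrophages with 50 or more Spp1 UMIs per 10000 had Cdkn2a at 283 CPM, against 74.3 CPM in the lowest bin, and Apoe at 3969 against 10339 CPM. Trem2 went 330.0, 377 and 263 CPM and Fabp5 1709, 1989 and 1965 CPM along the control bins. Cd9 went 33.9, 73.2 and 161 CPM, Arg1 276, 461 and 729 CPM and Cd74 4303, 2069 and 1423 CPM, in the same directions as in the UBD library. Median depth also differed between the control bins (4294, 2381 and 2636 UMIs), and less so between the UBD bins (5682, 5580.5 and 5692 UMIs). Binned by Apoe instead (under 20, 20 to 100, and 100 or more per 10000), Trem2 went up in both libraries, with 193, 323 and 449.8 CPM in control cells and 269, 380.4 and 521 CPM in UBD cells. Spp1 went down in the control (1266, 927 and 600.2 CPM) and was level in the UBD library (2949, 3135 and 3044 CPM). Trem2 thus followed Apoe in both libraries.

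**Figure D4:**
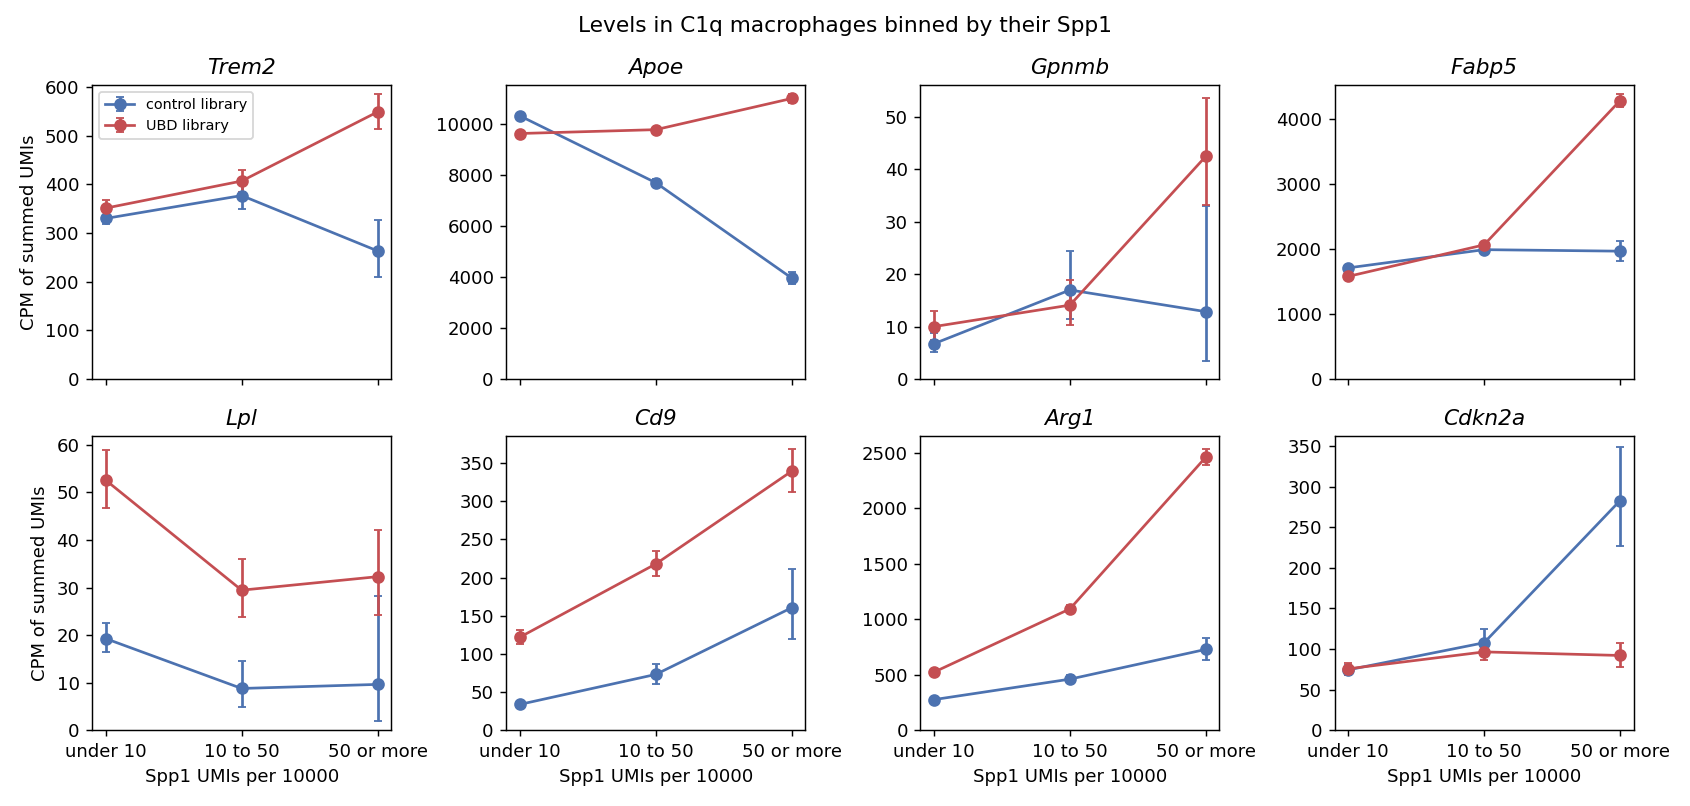
Levels (CPM of summed UMIs, linear axis from 0) in C1q macrophages binned by their own Spp1 UMIs per 10000, for the control (blue) and UBD (red) libraries, with 95% counting intervals. Fabp5, Cd9, Trem2, Gpnmb and Arg1 of the UBD library are highest in the top bin, while Cdkn2a, which reads tumour RNA, goes from 74.3 to 283 CPM in control cells and from 75.6 to 92.0 CPM in UBD cells.

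A small set of macrophages had a higher level of Cd36. Cells with at least 10 UMIs per 10000 of Lyve1 or Fcna, genes of tissue-resident macrophages, numbered 22 in the control and 73 in the other library. They had Cd36 at 122 and 151 CPM, against 11.02 and 10.9 CPM in all other C1q macrophages. The 22 control cells gave 12 Cd36 UMIs and the 73 UBD cells 78, while the other macrophages gave 111 and 107, so these cells did not hold most of its UMIs in either library. Fabp5 was at 152 and 159 CPM in them and 1779 and 2267 CPM in the rest. Apoe was unlike between the libraries, at 32844 against 9477 CPM in the control and 9897 against 9916 CPM in the UBD library. Spp1 was at 315 against 901 and 1791 against 3121 CPM. Cd9 gave 0 UMIs in the 22 control cells and was at 81.5 against 192 CPM in the UBD library. Trem2, at 396 and 388 CPM, was close to the rest (335 and 401 CPM). Without these cells the log2 ratio of Cd36 between the libraries in low MHC class II macrophages went from 1.21 to 0.51, short of the rule; this alternative was added after the data were seen. Dividing macrophages, with at least 2 UMIs of Mki67 and Top2a among cells of 3000 or more UMIs, had less Apoe than the others: 4379 against 10769 CPM in control cells and 6526 against 10651 CPM in UBD cells. This was not particular to Apoe. Fabp5 was at 1050.0 against 1936 CPM in control cells and 1330 against 2501 CPM in UBD cells. Spp1 was at 464 against 841 and 1911 against 3394 CPM, and Trem2 at 303 against 364 and 319.9 against 426 CPM. Lpl leaned the other way, with 20.6 against 15.7 and 56.6 against 38.9 CPM, but its intervals overlapped in the control. The cut on Mki67 and Top2a is a raw count, which deeper cells pass more easily. Dividing and other macrophages were not matched for depth, and the part of depth in these differences was not tested.

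Ly6c2 monocytes are the blood-derived cells from which tumour macrophages mature. Against C1q macrophages they had 2 members higher and 5 lower in the control library (10.2% and 18.2% of all genes), and 0 higher and 7 lower in the other (7.14% and 6.61%). Apoe was 5.95-fold (5.81 to 6.10) and 10.7-fold (9.55 to 12.1) lower than in macrophages and Trem2 4.24-fold (3.80 to 4.75) and 2.52-fold (1.90 to 3.41) lower. Control monocytes had more Spp1 than control macrophages, 1.97-fold (1.91 to 2.03), and more Cd9, 2.55-fold (2.24 to 2.90). Between the libraries, 1 of 8 members was higher in the UBD library and 3 were lower, against 6.22% and 8.32% of 8757 genes. Trem2 was the higher one, with 79.1 (71.1 to 87.8) CPM in control cells and 159 (118 to 210.0) CPM in UBD cells, 2.01-fold (1.46 to 2.71). Spp1 (1764 and 989 CPM), Apoe (1630.0 and 924 CPM) and Fabp5 (898 and 535 CPM) were lower, at ratios of 0.561 (0.498 to 0.629), 0.567 (0.502 to 0.638) and 0.595 (0.506 to 0.696). These rest on only 100 UBD cells, and the classes came from different clusters. With classes taken from whole clusters 0 members were lower and 2 higher: Cd9 went to a log2 ratio of 1.04 and Spp1 changed sign, to 0.75, while Apoe and Fabp5 went to -0.17 and -0.42 and Trem2 to 0.47. With the gate cuts divided by 2, Trem2 (0.58) fell short of the rule and the count of higher members was 0. The UBD level of Spp1 was 1.33 times the free-RNA level and that of the control 2.56 times. Cd9 had 113 and 104 CPM, a ratio of 0.917 (0.620 to 1.31), and Gpnmb, Lpl and Cd36 were sparse, with 50, 20 and 26 UMIs in control cells and 0, 1 and 2 in UBD cells, where 0 allows up to 9.72 CPM.

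Osteoclast-like cells, whose namesakes resorb bone and derive from the macrophage lineage, had more Lpl and Cd9 than C1q macrophages but less Trem2 and Apoe. Neither Lpl nor Cd9 was particular to them. Fibroblasts had Lpl at 200.2 and 343 CPM, and tumour cells had Cd9 at 511 and 569.9 CPM. Against all C1q macrophages of the same library, 3 members were higher and 4 lower in the control (20.5% and 23.9% of 10700 genes), and 2 were higher and 5 lower in the UBD library (21.4% and 24.4% of 11207 genes). Lpl was 18.6-fold (15.7 to 22.2) and 3.42-fold (3.07 to 3.82) as high as in macrophages, and Cd9 6.12-fold (5.35 to 6.99) and 1.62-fold (1.53 to 1.72). Gpnmb was 3.13-fold (2.13 to 4.54) as high in the control and 0.966-fold (0.768 to 1.21) in the UBD library. Trem2 was 3.21-fold (2.75 to 3.77) and 11.5-fold (10.2 to 12.95) lower than in macrophages, Apoe 7.76-fold (7.43 to 8.12) and 25.8-fold (24.9 to 26.7) lower, and Fabp5 7.04-fold (6.38 to 7.79) and 5.78-fold (5.58 to 5.998) lower. Tyrobp, the adaptor through which TREM2 signals, differed little, with ratios of 1.03 (0.999 to 1.07) and 1.06 (1.04 to 1.08). Of the 11 TREM2 signalling genes as a list, 1 was higher and 7 lower in the control and 0 higher and 8 lower in the UBD library; of 16 lipid uptake and droplet genes, 3 were higher in each and 7 and 8 lower. The higher signalling gene was Adam10, at a ratio of 1.70.

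Between the libraries, the called members pointed the other way from those in macrophages, a difference that was not tested: of 7 members with at least 20 UMIs, 0 were higher and 4 lower in the UBD library (4.58% and 9.23% of 9908 genes). Apoe was 1249.6 CPM in control cells and 384 CPM in UBD cells, 3.25-fold (3.08 to 3.44) lower. Trem2 was 105 and 34.8 CPM, 3.01-fold (2.48 to 3.64) lower, and Lpl 321 and 144 CPM, 2.22-fold (2.004 to 2.46) lower. Gpnmb was 1.70-fold (1.18 to 2.40) lower, and from 1.15-fold to 2.21-fold lower over the alternatives. The C1q genes, which these cells should lack, summed to 116 CPM in control cells and 54.6 CPM in UBD cells, and macrophage RNA at that rate would give Apoe at 92.9 and 41.5 CPM. Without the shallow mixed cluster the log2 ratios of Trem2 and Apoe were -1.62 and -1.66, and 1 member, Fabp5, was higher (0.71). Fabp5 (250.4 and 374 CPM) had a ratio of 1.49 (1.35 to 1.66) and Cd9 one of 1.11 (1.01 to 1.23), both short of the rule, and Spp1 one of 1.04 (0.979 to 1.10). The direction of Fabp5 and Spp1 was not settled in these cells: over the alternatives their log2 ratios ranged from -0.25 to 1.39 and from -0.92 to 0.76. Control cells were the deeper ones here, with a median of 17404 UMIs against 12478.

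In tumour cells, Spp1, Cd9 and Fabp5 were the most abundant members, and their levels were close in both libraries, with ratios of 1.08 (1.08 to 1.09), 1.12 (1.10 to 1.13) and 0.962 (0.952 to 0.972). Against C1q macrophages, tumour cells had 2 members higher and 4 lower in the control library (39.4% and 24.1% of all genes) and 3 higher and 5 lower in the other (40.9% and 21.0%), Spp1 being 13.2-fold (12.9 to 13.5) and 4.196-fold (4.15 to 4.24) and Cd9 11.5-fold (10.5 to 12.7) and 3.05-fold (2.92 to 3.20) as high. Between the libraries, 2 members were higher and 2 lower in UBD tumour cells, against 8.19% and 18.1% of 14965 genes. Gpnmb, known also from pigment cells and some carcinomas, was 11.5 and 30.7 CPM, 2.68-fold (2.51 to 2.86) higher, and Lpl 13.1 and 21.0 CPM, 1.60-fold (1.49 to 1.70) higher. Gpnmb was 258 and 690.0 times and Lpl 149 and 184 times above the level that free macrophage RNA would give. Macrophages were the only source counted here. Fibroblasts carried more of both genes and osteoclast-like cells more Lpl, and free RNA from these was not estimated. Trem2 (3.33 and 1.78 CPM) and Cd36 (0.556 and 0.125 CPM) were the lower ones. The C1q sum moved with them, from 62.4 CPM in control to 35.2 CPM in UBD tumour cells, and without the shallow mixed cluster, which held 23.5% of the control tumour cells, 0 members were lower and 3 higher, Apoe being the added one, with a log2 ratio of 0.89. That of Apoe ranged from -1.08 to 1.23 over the alternatives, so its direction in tumour cells was not settled. Of the 11 TREM2 signalling genes, 9 were lower and 1 higher in these cells; the part of macrophage RNA in this was not tested. In total, all C1q macrophages together gave 9108 and 31666 Spp1 UMIs, and the tumour cells 1233376 and 1634358.

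Other genes of the pathway were read from lists. Ratios in parentheses after a gene are UBD over control, and genes that passed the rule are named after their values were seen. For every list, the counts are to be read beside the shares over all genes. Those were 9.25% higher and 18.3% lower in high MHC class II macrophages, and 10.6% and 16.1% in low ones. A count near these shares is not a result about its list. Of 11 TREM2 signalling genes, 1 was higher and 0 lower in UBD than control high MHC class II macrophages, and 1 higher and 3 lower in low cells; the list's median log2 ratios were 0.10 and -0.31 in high and low cells, against -0.09 and -0.03 over all genes tested. The higher one in both was Adam10, 1.86 (1.52 to 2.30) and 2.39 (2.01 to 2.84), the protease that sheds TREM2 from the surface. The lower ones in low cells were Syk (0.625), Hcst (0.644) and Vav1 (0.664). Tyrobp stood at 2522 and 2881 CPM in high cells and 2509 and 2489.5 CPM in low cells in the control and UBD libraries. Ms4a6d stood at 487 and 527 CPM in high cells and 686 and 651 CPM in low cells, and Spi1, which codes for PU.1, at 498 and 425 CPM in high cells and 521 and 419.9 CPM in low cells. The adaptor was thus not past the rule in high cells, where Trem2 was. The kinase gene Syk was at 157 and 111 CPM in high cells and 155 and 96.8 CPM in low cells.

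Of 12 measured genes of LXR and cholesterol handling, 1 was higher and 4 lower in high cells, and 1 higher and 2 lower in low cells, with medians of -0.25 and -0.15. Lpcat3, a phospholipid enzyme, was the higher one in both, 1.76 (1.17 to 2.69) and 1.56 (1.15 to 2.13). The lower ones were Ch25h (0.184), Abcg1 (0.206), Mylip (0.328) and Npc1 (0.652) in high and Ch25h (0.319) and Abcg1 (0.410) in low cells. Abcg1, a cholesterol exporter and a target of LXR like Apoe, was at 126 and 26.1 CPM in high cells and 80.7 and 33.1 CPM in low cells, with intervals of 0.167 to 0.254 and 0.339 to 0.494 around its ratios. The exporter gene Abca1 was at 144 and 157 CPM in high cells and 194 and 203 CPM in low cells. Soat1, which codes for a cholesterol esterifying enzyme, was at 92.2 and 105 CPM in high cells and 82.1 and 109.6 CPM in low cells, and Npc2, which moves cholesterol out of lysosomes, at 1873 and 1358 CPM in high cells and 1667 and 1264 CPM in low cells. Apoe and Abca1 were thus close between the libraries. Abcg1 and Ch25h were lower in both classes, Mylip and Npc1 were called lower in high cells alone, and Lpcat3 was higher in both.

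Of the lipid uptake and droplet genes, 2 of 13 measured were higher and 4 lower in UBD high cells, and 2 of 16 higher and 5 lower in low cells, with medians of -0.13 and -0.09. The higher ones were Msr1 (2.29) and Lrp1 (1.66) in high and Cd5l (5.56) and Acsl1 (1.84) in low cells, and the lower ones Angptl4 (0.0498), Pparg (0.226), Plin2 (0.281) and Dgat1 (0.423) in high and Dgat2 (0.160), Angptl4 (0.251), Plin2 (0.440), Pparg (0.453) and Dgat1 (0.471) in low cells. Plin2, the coat protein of lipid droplets, was at 614 and 173 CPM in high cells and 683 and 301 CPM in low cells, ratios of 0.281 (0.259 to 0.306) and 0.440 (0.414 to 0.468). Plin2, together with the triglyceride enzyme gene Dgat1, thus went the opposite way from Spp1, Cd9, Gpnmb and Lpl. The scavenger receptor gene Msr1 was at 93.6 and 215 CPM in high cells and 197 and 268 CPM in low cells, the lipoprotein receptor gene Lrp1 at 79.9 and 133 CPM in high cells and 151 and 173 CPM in low cells, and Hilpda, an inhibitor of lipolysis, at 237 and 341 CPM in high cells and 475 and 486 CPM in low cells.

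Of 16 lysosome and phagocyte genes, 3 were higher and 1 lower in high cells, and 2 higher and 1 lower in low cells, with medians of 0.04 and -0.05. The higher ones were Cd63 (3.16), Tfec (2.73) and Ctsl (1.95) in high cells and included Cd63 (2.36) in low cells, and the lower ones were Tfe3 (0.650) and Tfeb (0.657). Cd63, like Cd9 a tetraspanin, was past the rule in both. The lysosomal protease gene Ctsb was at 2046 and 1493 CPM in high cells and 3110.1 and 2652 CPM in low cells and Ctsl at 554 and 1078 CPM in high cells and 1661 and 2453 CPM in low cells. Lgals3 was at 2081 and 1783 CPM in high cells and 2356 and 1823 CPM in low cells and Lgmn at 1306 and 1131 CPM in high cells and 1702 and 1504 CPM in low cells. Of 8 genes known from disease-associated microglia, 1 was higher and 3 lower in high and 2 higher and 1 lower in low cells, with medians of -0.44 and 0.11. Those higher were Itgax (2.82) in high and Itgax (2.58) and Igf1 (1.88) in low cells, and those lower Csf1 (0.374), Igf1 (0.416) and Axl (0.643) and Lilrb4a (0.576). Itgax, which codes for CD11c, was higher in both. Axl was at 145 and 93.0 CPM in high cells and 44.8 and 39.0 CPM in low cells, Ccl6 at 428 and 639 CPM in high cells and 1013 and 1350.4 CPM in low cells, Cd52 at 2891 and 2538 CPM in high cells and 2078 and 1442 CPM in low cells and Lilrb4a at 57.4 and 48.8 CPM in high cells and 52.7 and 30.4 CPM in low cells.

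Of the receptors and partners of the secreted members and of CD9, 3 of 11 measured were higher and 1 lower in UBD high cells, and 5 of 13 higher and 1 lower in low cells, with medians of 0.37 and 0.26. The higher ones were Cd81 (2.84), Igsf8 (1.73) and Sdc4 (1.51) in high and Cd81 (3.68), Vldlr (3.11), Ptgfrn (2.30), Igsf8 (1.90) and Itgb1 (1.67) in low cells, and the lower ones Cd44 (0.662) and Sorl1 (0.317). Cd81 and Igsf8, whose products join CD9 in tetraspanin complexes, were higher in both, as was Cd9. Cd81 was at 230.2 and 653 CPM in high cells and 160.02 and 589 CPM in low cells, with intervals of 2.61 to 3.09 and 3.42 to 3.96 around its ratios. Cd44, a receptor of osteopontin, was at 359.7 and 238 CPM in high cells and 349 and 277 CPM in low cells, the integrin gene Itgb1 at 168 and 218 CPM in high cells and 178 and 296 CPM in low cells and the syndecan gene Sdc4 at 319.6 and 482 CPM in high cells and 433 and 519 CPM in low cells.

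In low against high MHC class II cells, 7.38% of all genes were higher and 3.98% lower in the control, and 10.8% and 3.61% in the UBD library. By the same comparison, the lysosome list had 6 of 16 genes higher and 1 lower in the control and 3 higher and 0 lower in the UBD library. The protease genes Ctsl, with ratios of 2.9998 (2.84 to 3.17) and 2.28 (2.20 to 2.35), Ctsb, with 1.52 (1.48 to 1.57) and 1.78 (1.72 to 1.83), and Ctsd, with 1.91 (1.82 to 2.01) and 1.88 (1.80 to 1.97), were higher in both libraries. Of the uptake and droplet genes, 4 of 14 were higher and 1 lower in the control and 3 of 13 higher and 1 lower in the UBD library. Those were Fabp4 (2.45), Msr1 (2.10), Hilpda (2.001) and Lrp1 (1.89), with Acsl1 (0.569) lower, in the control, and Cd5l (14.7), Fabp4 (3.06) and Plin2 (1.74), with Olr1 (0.271) lower, in the UBD library; ratios here are low over high. The LXR list had 2 higher and 2 lower of 12 in the control (Nr1h3 (1.75) and Ch25h (1.69) higher, Abcg1 (0.639) and Mylip (0.639) lower) and 2 higher and 0 lower in the UBD library (Ch25h (2.93) and Mylip (1.63)). Among 11 TREM2 signalling genes, Ms4a4a (1.92) was higher in the control and none passed the rule in the UBD library. Of the 8 microglial genes, 2 were higher and 2 lower in the control and 3 higher and 4 lower in the UBD library; Axl, a receptor for dying cells, was lower in both, at 0.310 (0.265 to 0.361) and 0.420 (0.350 to 0.502), and Ccl6 higher, at 2.37 (2.23 to 2.52) and 2.11 (2.02 to 2.21). Of 12 receptors and partners, 0 were higher and 2 lower in the control and 1 higher and 2 lower in the UBD library, Itga4 (0.568) and Sorl1 (0.608) and then Vldlr, from 1 and 28 UMIs in high and low cells, and Sorl1 (0.271) and Itga4 (0.499).

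Counted per cell at 1000 UMIs, 0.862% of control and 3.20% of UBD C1q macrophages had transcripts of 5 or more of the 8 genes, with means of 2.05 and 2.54 genes per cell. T cells had means of 0.727 and 0.905 and no cell with 5 or more. Osteoclast-like cells had 5 or more in 1.98% of 101 control and 0.299% of UBD cells, with means of 2.03 and 1.39. Tumour cells had means of 1.91 and 1.95. The control mean of macrophages was thus close to those of osteoclast-like and tumour cells. Trem2, Gpnmb and Spp1 were found together in 0.0907% and 0.415% of C1q macrophages. High MHC class II macrophages had 5 or more genes in 0.162% of control and 2.92% of UBD cells, and low ones in 1.24% and 3.87%. At this depth few cells showed most of the set.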

How the data were processed

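Raw UMI counts per gene and cell barcode were deposited by the authors for the 2 libraries, 1 per group. The submitters' processing notes name Cell Ranger, STAR and mm10, and per the file headers the matrices were written by software version 3.1.0. The 8 genes, the lists and the tests were chosen with earlier results of these data known. Barcodes with 200 genes or more, 500 UMIs or more and up to 20% mitochondrial counts passed, and 530 control and 562 UBD cells that Scrublet (in scanpy 1.11.5) called doublets were then removed. Classes came from marker cuts on UMIs per 10000, and cells matching several classes were left out. Leiden clusters (30 components of 2000 genes, resolution 1) served to check the classes, to set the tumour level behind the free-RNA level, and for alternatives. Counts were summed per class and library and given as CPM (UMIs per 1000000), with exact Poisson intervals, and ratios with exact conditional binomial intervals (scipy 1.17.1); shares of cells have exact Clopper-Pearson intervals. The unit of the matrices was whole counts, so no normalised values of the authors entered. A gene counted as higher or lower at a ratio of 1.5 with an interval excluding 1, among genes with at least 20 summed UMIs; the calls were tested on simulated data. The text names all 8 genes in every class, for each the 3 genes with the nearest pattern (at least 50 CPM in a profile, pseudocount 1 CPM), and for each list the 4 genes with most UMIs in C1q macrophages plus any past 3-fold between low and high MHC class II in both libraries. The alternatives were 10 planned and 3 added after the data were seen. The values of 1 list gene are not reported here.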

Additional observations from a re-analysis of the deposited data

Results flagged for a closer look

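The UBD over control difference of 6 genes was past the 1.5-fold rule in opposite directions in different cell classes. With 1 library per group, the difference between classes was not tested. Values are log2 ratios, UBD over control.

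Trem2, the lipid receptor, was higher in UBD high MHC class II macrophages (0.83) and monocytes (1.01) and lower in osteoclast-like cells (-1.59) and tumour cells (-0.90). The tumour value comes from 3.33 and 1.78 CPM, and C1q transcripts were lower in the same cells, 62.4 against 35.2 CPM. Without the shallow mixed cluster it was -0.39, and the monocyte value was 0.58 with gate cuts divided by 2 and 0.47 with classes from clusters, each short of the rule for Trem2. Lpl, the lipase gene, was higher in high (1.95) and low MHC class II macrophages (0.91) and tumour cells (0.67) and lower in osteoclast-like cells (-1.15). Gpnmb, the lysosomal glycoprotein gene, had the same directions, with 1.70 in high and 1.09 in low MHC class II macrophages, 1.42 in tumour cells and -0.76 in osteoclast-like cells. Over the alternatives, Gpnmb ranged from -1.14 to -0.21 in osteoclast-like cells and Lpl from 0.51 to 0.77 in tumour cells. Neither call thus held its size under every alternative.

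Spp1, the osteopontin gene, was higher in high (1.995) and low MHC class II macrophages (2.01) and lower in monocytes (-0.84), where the sign turned with classes taken from clusters. Fabp5 was higher in high MHC class II macrophages (1.76) and lower in monocytes (-0.75), where it was -0.42 with classes from clusters. Cd36 was higher in low MHC class II macrophages (1.21) and lower in tumour cells (-2.15), the latter from 58 control and 16 UBD UMIs. Neither call of Cd36 held under every alternative: it was 0.51 in low MHC class II macrophages without the cells with Lyve1 or Fcna and -0.08 in tumour cells without the shallow mixed cluster.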

How the results depend on the processing

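No paired analysis was possible because each group has 1 library. Over all alternatives, 513 of 514 values of the 45 member ratios past the rule kept their direction, and 201 of 224 counts of members were within 1.5 times of the reported one. The exception in direction was Spp1 in monocytes, with a log2 ratio of 0.75 when classes were taken from clusters. In monocytes, 1 member was higher and 3 lower as reported. With gate cuts divided by 2, 0 were higher, and with classes from clusters 2 were higher and 0 lower. The lower count was 5 with every cell weighted equally, 1 with cuts multiplied by 2 and 0 at a size of 2. In osteoclast-like cells, where 0 members were higher in the UBD library, 1 was higher under the stricter cell filter, with cuts divided by 2, with the denominator without mitochondrial, ribosomal and Gm42418 counts, without the shallow mixed cluster and with free RNA subtracted, and 2 with doublets kept. In tumour cells, with 2 higher and 2 lower as reported, 1 was higher with cuts multiplied by 2 and at a size of 2, and 1 was lower with doublets kept and at a size of 2, and 0 without the shallow cluster. For low against high MHC class II cells, 3 members in place of 6 were higher in the control when cells were thinned to 1000 UMIs. The count of lower members there was 1 in place of 0 in the control with classes from clusters, and in the UBD library with cuts multiplied by 2 and with free RNA subtracted. Against C1q macrophages, 1 member in place of 2 was higher in UBD osteoclast-like cells with classes from clusters and at a size of 2. The cause of these changes was not tested, apart from thinning and the larger size, which leave fewer UMIs or a stricter rule. The log2 ratio between libraries in high MHC class II macrophages ranged from 0.66 to 0.90 for Trem2, 1.65 to 1.99 for Fabp5, 1.83 to 3.12 for Cd9 and 1.70 to 4.82 for Spp1, the highest for Spp1 and Cd9 with free RNA subtracted. Depth limits Gpnmb, Lpl and Cd36 most, and the intervals cover counting error only, not the spread between animals.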

Other observations

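Outside the classes of the report, the same genes marked other cells. Neutrophils, 127 control and 16 UBD cells, had Cd9 at 1685 and 1849.8 CPM, 53.6 and 64.6 times the free-RNA level, and Spp1 at 4642 and 1009 CPM. Natural killer cells had Cd9 at 207 (177 to 239.7) and 252 (149 to 399) CPM in 212 and 32 cells, above the T cells of both libraries (45.02 and 77.2 CPM). Cd36, known from capillary endothelium, stood at 90.5 (66.0 to 121) and 24.7 (5.10 to 72.3) CPM in 118 and 29 endothelial cells. Fibroblasts carried Lpl at 200.2 (169 to 235) and 343 (303 to 386) CPM and Gpnmb at 74.7 (56.4 to 97.0) and 34.0 (22.4 to 49.5) CPM. Dendritic cells had Fabp5 at 2189 and 2302 CPM while Trem2 was at 6.40 and 17.5 CPM there. Several of these classes are small, and no ratio between the libraries was computed for them.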
